A study of Mus musculus with 17 samples.

Results

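The protein tyrosine phosphatases measured here are the genes whose symbol is Ptpn followed by digits, or Ptpr followed by 1 or 2 letters. By that rule 32 of the 18193 genes with a named probe set on the array were members, 16 with a Ptpr symbol and 16 with a Ptpn symbol. For each gene, the probe set (the group of short oligonucleotides that reports 1 transcript) with the highest mean over the arrays was used. The gene expression data came from 5 progenitor fractions sorted from the bone marrow of mice aged 10 to 14 weeks, on 17 Affymetrix arrays. Common lymphoid progenitors (CLP, 3 arrays) were Lin-Sca1lowKitlowIL7r+Flk2+. Megakaryocyte progenitors (MkP, 3 arrays) were Lin-Sca1-Kit+ and positive for Itga2b and Slamf1. Erythroid precursors before the CFU-E stage (preCFUE, 3 arrays) were Lin-Sca1-Kit+ and Itga2b-, FcgRlow, Slamf1+ and Enghigh. Bipotent megakaryocyte and erythroid precursors (preMegE, 5 arrays) had the preCFUE gate except that Eng was low. Granulocyte and macrophage precursors (preGM, 3 arrays) had the preMegE gate except that Slamf1 was negative. All but the CLP gate share Lin-Sca1-Kit+, and the gates as written name none of the 32 phosphatase genes. The gates do not list the antigens behind Lin-, so whether these include a product of a phosphatase gene is not known. No genotype or treatment is given, and nothing in the labels tells separate animals or sorts from repeat hybridisations of 1 pool. The spread behind each p-value is that of the arrays, and it may be technical.

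Protein tyrosine phosphatases remove phosphate from tyrosine residues and so oppose or adjust the signals that tyrosine kinases start. The receptor-type members (Ptpr) span the cell membrane, with extracellular parts that resemble adhesion molecules, and the non-receptor members (Ptpn) are steered inside the cell by SH2, FERM or proline-rich parts. In blood cell development they act on cytokine receptors, JAK kinases and Src family kinases. The best known examples are CD45 (Ptprc) on nearly all nucleated blood cells, SHP1 (Ptpn6) and SHP2 (Ptpn11).

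Promoter windows are shown for 4 members that passed the test in MkP against preCFUE, Ptpn14 and Ptpn3 being lower in MkP and Ptprc and Ptpn22 higher. The genes were chosen for display after their values were seen. The windows run from 250 bases before to 50 bases after an annotated transcript start in RefSeq (GRCm38.p6), 5′ to 3′ on the gene's strand, and for Ptprc and Ptpn22, which have 2 windows each, the most upstream is shown. Capitals mark AGGAAG or its reverse complement CTTCCT, the core recognised by ETS factors.
Ptpn14, chr1:189728018-189728317, plus strand: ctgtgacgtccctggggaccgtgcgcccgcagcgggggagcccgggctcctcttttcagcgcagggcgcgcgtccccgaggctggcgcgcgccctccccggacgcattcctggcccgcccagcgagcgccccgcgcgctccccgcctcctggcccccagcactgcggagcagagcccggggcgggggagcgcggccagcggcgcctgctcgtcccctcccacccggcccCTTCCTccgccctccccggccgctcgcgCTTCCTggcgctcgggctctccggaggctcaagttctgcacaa
Ptpn3, chr4:57301788-57302087, minus strand: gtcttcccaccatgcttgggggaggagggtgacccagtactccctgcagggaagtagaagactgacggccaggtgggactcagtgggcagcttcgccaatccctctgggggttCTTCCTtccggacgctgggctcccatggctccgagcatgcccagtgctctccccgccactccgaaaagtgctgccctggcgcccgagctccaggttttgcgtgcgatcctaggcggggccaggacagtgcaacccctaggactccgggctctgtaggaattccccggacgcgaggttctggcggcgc
Ptprc, chr1:138175256-138175555, minus strand: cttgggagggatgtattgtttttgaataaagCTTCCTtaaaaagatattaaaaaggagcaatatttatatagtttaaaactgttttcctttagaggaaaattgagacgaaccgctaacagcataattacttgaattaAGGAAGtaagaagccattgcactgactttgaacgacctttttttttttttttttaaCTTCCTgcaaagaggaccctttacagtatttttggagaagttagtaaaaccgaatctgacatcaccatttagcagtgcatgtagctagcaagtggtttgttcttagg
Ptpn22, chr3:103859545-103859844, plus strand: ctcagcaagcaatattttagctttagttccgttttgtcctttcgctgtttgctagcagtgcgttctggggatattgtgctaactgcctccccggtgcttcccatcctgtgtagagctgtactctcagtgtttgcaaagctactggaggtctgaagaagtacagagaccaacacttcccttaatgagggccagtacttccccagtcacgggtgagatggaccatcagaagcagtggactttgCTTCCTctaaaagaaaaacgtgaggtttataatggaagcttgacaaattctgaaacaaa
The Ptpn14 window is 78.3% G or C, the Ptpn3 window 65.3%, the Ptpn22 window 46.0% and the Ptprc window 33.7%. A window was available for 27 of the 32 members. These 27 members had 40 windows, and each was counted by its most upstream window alone. The share of all windows counts every window of a gene, so the units differ. On both strands AGGAAG was found in 10 of the 27 members (37.0%) and in 35.4% of all 32851 windows of the same length. The GATA factor core AGATAA was found in 1 of 27 members (Ptpro) and in 11.2% of all windows, and the RUNX core TGTGGT in 1 of 27 (Ptprr) and in 16.8% of all windows. None of the 4 windows shown held AGATAA or TGTGGT. These are matches of letters and do not show binding.

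Each fraction was first set against its own marker genes. All 6 markers of CLP, of MkP, of preCFUE and of preGM had their highest mean in the fraction they mark, while of the 5 preMegE markers measured, 2 did. CLP replicate 2 stood apart: its mean correlation over all genes was 0.961 with the preGM arrays and 0.949 with the other CLP arrays, the only 1 of 17 arrays closer to another fraction. The log2 ratio of 3-prime to 5-prime Gapdh probe sets, a sign of RNA length, was 5.12, 3.00 and 4.08 in the CLP arrays. The fraction means of that ratio were 4.07 in CLP, 3.85 in MkP, 3.49 in preCFUE, 3.58 in preMegE and 3.27 in preGM. The summed intensity of neutrophil markers ran from 88.3 to 215 in CLP, 124 to 1396 in MkP, 211 to 393 in preCFUE, 100 to 1541 in preMegE and 222 to 1531 in preGM. The summed T and NK cell markers (4 of 6 measured) ran from 241 to 378 in CLP, 371 to 517 in MkP, 91.3 to 110.4 in preCFUE, 451 to 606 in preMegE and 295 to 442 in preGM. The summed mast cell and basophil markers ran from 124 to 176 in CLP, 122 to 183 in MkP, 109 to 126 in preCFUE, 243 to 307 in preMegE and 284 to 387 in preGM. Macrophage markers stayed low, with sums from 70.5 to 122.5 over all arrays, and mature B and plasma cell markers (5 of 6 measured) summed to 173 to 273 in CLP and 62.1 to 138 in the other fractions.

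Of the 32 phosphatase genes, 13 (40.6%) differed among the fractions (moderated F test of limma, adjusted p under 0.05), where 34.9% of all genes did. Among genes with a mean intensity of at least 64, 10 of 15 members (66.7%) and 61.6% of 7039 genes passed. The 13 were Ptpn14, Ptpn22, Ptprc, Ptpn12, Ptpre, Ptprf, Ptpn3, Ptpn6, Ptpn18, Ptprv, Ptpro, Ptpn11 and Ptpn2, in order of p. They comprised all 3 PEST phosphatases, both SH2 phosphatases, 2 of 5 FERM phosphatases, 5 of 16 members with a Ptpr symbol and 1 of the 2 members of the PTP1B and TCPTP pair. Of these 13, 5 had their highest mean in preGM, 3 in preMegE, 2 in CLP, 2 in MkP and 1 in preCFUE. The lowest mean was in preCFUE for 5, in CLP for 4, in MkP for 2, in preMegE for 2 and in preGM for 0. The same split was not counted over all genes, so these counts do not set the phosphatases apart. The F test does not say which pairs of fractions differ, which is given gene by gene below.

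**Figure D1:**
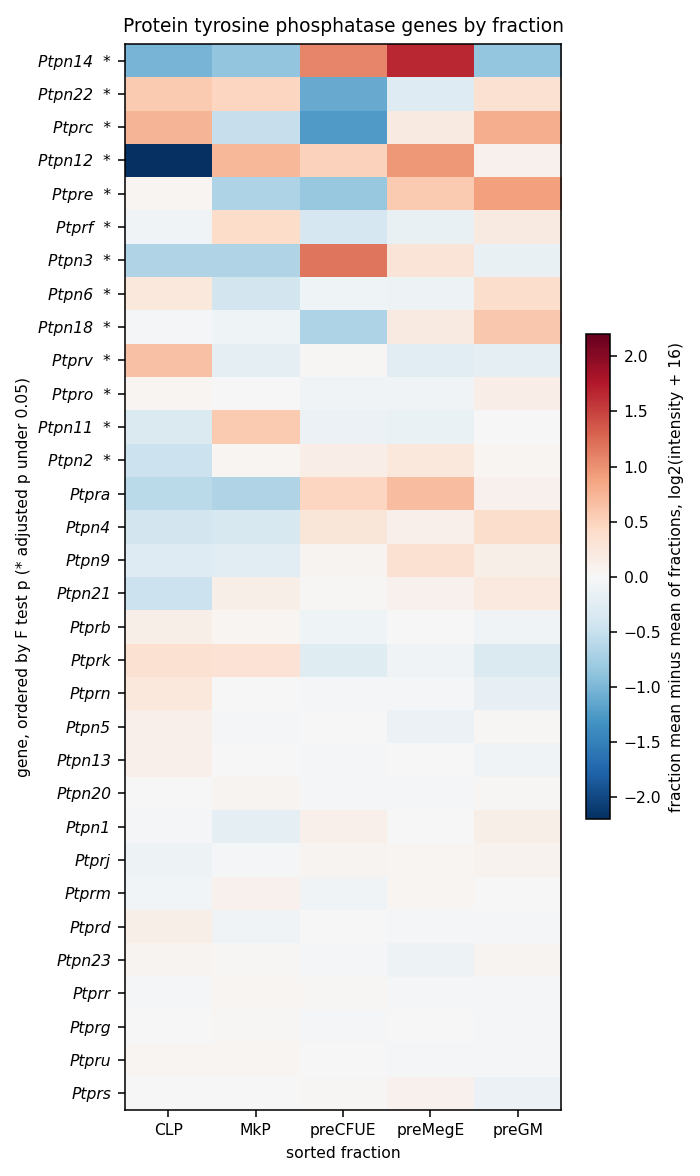
Mean of each fraction minus the mean of the 5 fractions on the log2(intensity + 16) scale (colour, red above and blue below), for 32 phosphatase genes in order of the F test p, with an asterisk on the 13 that passed. The deepest blue is Ptpn12 in CLP and the deepest red Ptpn14 in preMegE.

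Among receptor-type members, Ptprc and Ptpre were high in preGM and preMegE and low in both later branches, preCFUE and MkP. Ptprc encodes CD45, which removes the inhibitory phosphate from Src family kinases in leukocytes. Ptprc intensities were 1678, 2895 and 1684 in CLP, 952, 922 and 666 in MkP, 531, 519 and 445 in preCFUE, 1692, 1051, 1694, 1391 and 1199 in preMegE and 2249.6, 2068 and 1999.8 in preGM. All 3 preCFUE arrays lay below every other array, the MkP arrays came next, and no preMegE array reached a preGM array. The log2 fold change of Ptprc was -1.45 ± 0.20 (adjusted p = 0.000261) in preCFUE against preMegE and -0.71 ± 0.20 (adjusted p = 0.0322) in MkP against preMegE. It was 0.73 ± 0.22 (adjusted p = 0.0350) in MkP against preCFUE, so Ptprc was lower in preCFUE than in MkP. Against preGM, Ptprc did not pass the test in preMegE (-0.60 ± 0.20, adjusted p = 0.0847), nor in CLP (-0.061 ± 0.22, adjusted p = 0.863). The preCFUE change passed under every alternative tried. The MkP changes did not: the call against preMegE ended without any 1 of 6 arrays (all 3 MkP arrays and preMegE replicates 1, 3 and 4, adjusted p 0.0504 to 0.173), and the call against preCFUE when the Ptprc probe sets were averaged (0.35, adjusted p = 0.168) or without any 1 of 5 (MkP replicates 1 and 2 and all 3 preCFUE arrays, adjusted p 0.0649 to 0.124). Without CLP replicate 2 in the fit, the preMegE to preGM difference of Ptprc passed (adjusted p = 0.0253). A dimmer Ptprc probe set, with a mean of 31.1, was higher in CLP than in preGM by 1.05 ± 0.22 on the log2 scale (adjusted p = 0.00986), where the probe set used did not pass, and the mean over Ptprc probe sets gave 0.49 (adjusted p = 0.0489). The T and NK marker sum was likewise lowest in preCFUE, at 91.3 to 110.4 against 451 to 606 in preMegE, and its part in these results, or in those of Ptpn22 and Ptpn18 below, was not tested. Of the 4 markers in that sum, 1 had a mean of at least 64 in preMegE and 0 in preCFUE. Cd3e and Cd3d had their highest mean in MkP, Cd3g in CLP and Nkg7 in preMegE. In sorted bulk fractions, fewer cells that carry a transcript and less of it per cell cannot be told apart.

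Ptpre encodes PTP epsilon, which has a short extracellular part and acts on Src family kinases among others. Ptpre intensities were 479, 960.5 and 443 in CLP, 309, 442 and 318 in MkP, 334, 302 and 317 in preCFUE, 933, 651, 1139.9, 893 and 759.6 in preMegE and 1127, 1162 and 996 in preGM. No MkP or preCFUE array reached the lowest preMegE array. The mast cell and basophil marker sum was ordered alike, at most 183 in MkP and 126 in preCFUE and at least 243 in preMegE, and its part in the Ptpre result was not tested. Its 6 markers peaked in different fractions, Cpa3 in preMegE, Ms4a2 and Mcpt8 in preGM, Fcer1a in MkP, and Hdc and Tpsb2 in CLP. Of the 6, 1 had a mean of at least 64 in preMegE, and 0 did in MkP or preCFUE. Ptpre fell in MkP (-1.25 ± 0.22, adjusted p = 0.00208) and in preCFUE (-1.39 ± 0.22, adjusted p = 0.000998), both against preMegE, and both calls held under every alternative tried. A second Ptpre probe set, with a mean of 352, did not pass by itself in either comparison. In MkP against preMegE it gave -0.97 ± 0.33 (adjusted p = 0.0958). MkP and preCFUE overlapped and their difference did not pass (0.14 ± 0.25, adjusted p = 0.771), nor did that of preMegE against preGM (-0.34 ± 0.22, adjusted p = 0.580). After quantile normalization the MkP to preCFUE difference passed, at 0.54 (adjusted p = 0.0103). In CLP against preGM, Ptpre fell by 0.87 ± 0.25 on the log2 scale (adjusted p = 0.0294). After quantile normalization it was -0.46 (adjusted p = 0.0296). CLP replicate 2, at 960.5, was near the preGM range and the other CLP arrays were far below it. Without that array the difference was -1.22 (adjusted p = 0.000681), and the call ended without CLP replicate 1 or 3 or preGM replicate 1 or 2 (adjusted p 0.0917 to 0.130). Ptpra, the closest relative of Ptpre and an activator of Src, averaged 129 ± 77.1 in CLP, 115 ± 42.0 in MkP, 273 ± 109 in preCFUE, 322 ± 121 in preMegE and 214 ± 99.5 in preGM (SD). It did not pass the F test (adjusted p = 0.0550), and its log2 fold change in MkP against preMegE was -1.34 ± 0.41 (adjusted p = 0.0526), with no overlap between the arrays. Without CLP replicate 2, Ptpra passed the F test (adjusted p = 0.0176).

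The other receptor-type members that passed were dim. Ptprf, the adhesion receptor LAR, averaged 26.1 ± 4.11 in CLP, 43.5 ± 8.02 in MkP, 18.4 ± 1.28 in preCFUE, 23.9 ± 3.71 in preMegE and 35.2 ± 1.34 in preGM (SD). Ptprf was higher in MkP than in preMegE (0.57 ± 0.10, adjusted p = 0.00133) and than in preCFUE (0.78 ± 0.11, adjusted p = 0.000179), under every alternative tried, and another Ptprf probe set was also higher in MkP than in preCFUE (0.80 ± 0.17, adjusted p = 0.00565). It was lower in preMegE than in preGM (-0.36 ± 0.10, adjusted p = 0.0278), a call that ended without any 1 of 5 arrays (all 3 preGM arrays and preMegE replicates 1 and 2, adjusted p 0.0632 to 0.117). Averaging the Ptprf probe sets also ended that call (-0.13, adjusted p = 0.333). Ptprv, known in mice as the bone and testis phosphatase OST-PTP, gave 56.9, 50.8 and 119 in CLP, 33.3, 26.3 and 37.5 in MkP, 38.2, 53.4 and 31.9 in preCFUE, 26.3, 36.4, 31.3, 27.4 and 33.9 in preMegE and 28.2, 29.8 and 40.2 in preGM. CLP replicate 3 stood highest, and the other CLP arrays were above all preGM arrays. Ptprv was higher in CLP than in preGM (0.84 ± 0.22, adjusted p = 0.0190), and the call ended without CLP replicate 3 or preGM replicate 1 or 2 (adjusted p 0.0592 to 0.0757). Without CLP replicate 3 the difference was 0.53 (adjusted p = 0.0592). Ptpro, a receptor-type phosphatase of kidney podocytes, passed the F test with a mean under 16 in every fraction and was lower in preMegE than in preGM (-0.23 ± 0.055, adjusted p = 0.0136). The Ptpro call ended without preGM replicate 2 or 3 (adjusted p 0.0513 to 0.0797). It also ended when the Ptpro probe sets were averaged (-0.11, adjusted p = 0.364).

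Receptor-type members that did not pass included a bright one. Ptprs, PTP sigma, a receptor for heparan and chondroitin sulfate chains, averaged at most 418 in preMegE and at least 379 in preGM (F test adjusted p = 0.959). Its arrays ran from 241.7 to 624, and 1 fraction, preGM, had an SD of 213 on 3 arrays. Ptprk and Ptpru, of the MAM subfamily that binds its own kind on neighbouring cells, had fraction means between 25.4 and 49.9 and between 23.7 and 26.2. Ptprj, known as CD148 and an activator of Src kinases in platelets, was dim in every fraction, MkP included, at 13.3 ± 1.71 there (SD, n = 3) and 15.2 ± 3.77 in preMegE (SD, n = 5). In CLP against preGM the Ptprj probe set used gave -0.20 and did not pass, while another, with a mean of 9.78, was higher in CLP (0.27 ± 0.078, adjusted p = 0.0400). Ptprb, the vascular phosphatase VE-PTP, and Ptprn, of secretory granules, reached at most 24.8 and 33.4 in single arrays. Such low intensities give no proof that a transcript is missing.

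**Figure D2:**
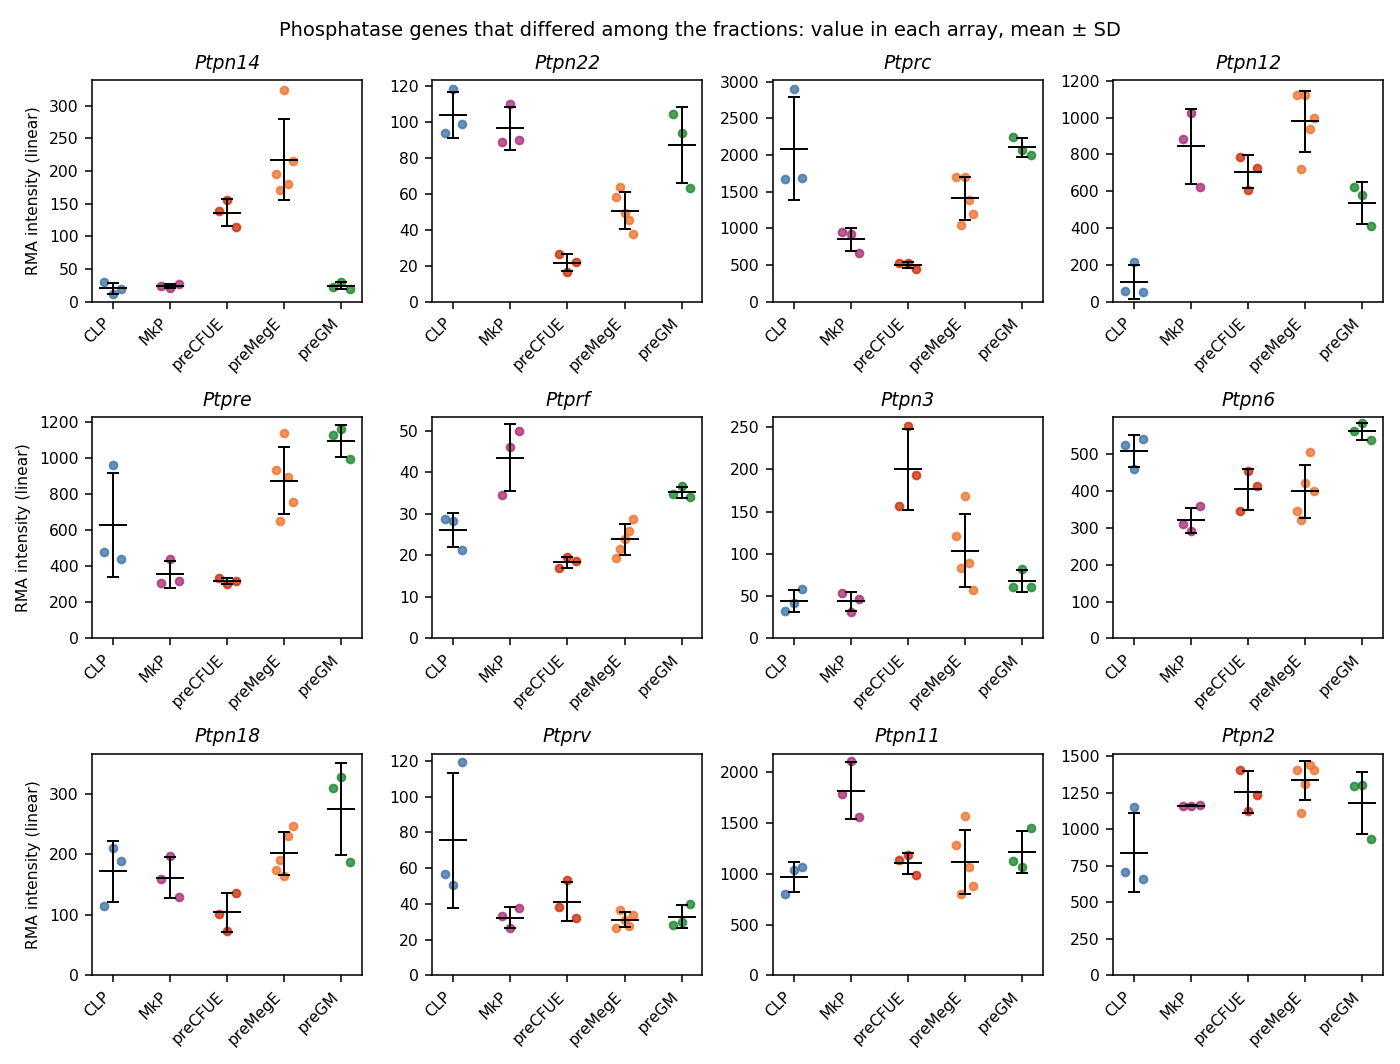
RMA intensity on a linear axis from 0 (vertical) in every array of the 5 fractions (horizontal), with mean and SD as bars, for 12 of the 13 phosphatase genes that passed the F test, Ptpro, under 16 in every fraction mean, being left out. The preCFUE arrays of Ptprc lie between 445 and 531, below every other array, and the preMegE arrays of Ptpn14 between 171 and 324, above every other array.

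Both SH2 domain phosphatases differed among the fractions, Ptpn6 with its highest mean in preGM and Ptpn11 in MkP. Ptpn6 encodes SHP1, a brake on cytokine receptor and Kit signals whose loss causes the motheaten phenotype in mice. Ptpn6 intensities were 523, 458 and 540.3 in CLP, 311, 290.3 and 358 in MkP, 344, 454 and 413 in preCFUE, 345, 321, 421, 504 and 398 in preMegE and 561, 584 and 538 in preGM. The 3 preGM arrays lay above all preMegE arrays, and the MkP arrays overlapped the lower preMegE arrays. Ptpn6 was lower in preMegE than in preGM (-0.49 ± 0.13, adjusted p = 0.0246), and did not pass in MkP against preMegE (-0.29 ± 0.13, adjusted p = 0.177). The preMegE call ended without any 1 of 5 arrays (all 3 preGM arrays and preMegE replicates 1 and 2, adjusted p 0.0529 to 0.108). Ptpn11 encodes SHP2, which carries signals from growth factor receptors to the Ras pathway. Ptpn11 intensities were 798, 1037 and 1064 in CLP, 1784, 2112 and 1558 in MkP, 1138, 1188 and 984 in preCFUE, 1288, 797, 1566, 1063 and 879 in preMegE and 1125, 1071 and 1455 in preGM. The MkP arrays were the highest, with 1 preMegE array reaching into their range. Ptpn11 was higher in MkP than in preMegE (0.72 ± 0.20, adjusted p = 0.0287) and than in preCFUE (0.71 ± 0.22, adjusted p = 0.0402). The first call ended without any 1 of 4 arrays (MkP replicates 1 and 2, preMegE replicates 4 and 5, adjusted p 0.0574 to 0.108). The second ended without any 1 of 8 (all 3 MkP and all 3 preCFUE arrays, preMegE replicate 4 and preGM replicate 1, adjusted p 0.0505 to 0.137). Both calls also ended with the mean over Ptpn11 probe sets (0.21, adjusted p = 0.0940, and 0.25, adjusted p = 0.0612), with median centring (adjusted p = 0.0513 and 0.0814) and with the replicate number as a block (adjusted p = 0.181 and 0.0818). The 2 other Ptpn11 probe sets were dim, with means of 20.8 and 19.9, and did not pass in MkP against preMegE (0.015 ± 0.15 and -0.099 ± 0.091).

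All 3 PEST phosphatases, which carry proline-rich tails that bind adaptors and the kinase Csk, differed among the fractions, each in its own pattern. Ptpn12, PTP-PEST, acts on proteins of cell adhesion and the cytoskeleton. Its intensities were 57.3, 215 and 49.99 in CLP, 881, 1026 and 622 in MkP, 784, 607 and 724 in preCFUE, 1122, 722, 1123, 936 and 999 in preMegE and 623, 577 and 409.5 in preGM. All 3 CLP arrays were below all 14 arrays of the other fractions, with CLP replicate 2 the highest of the 3. Ptpn12 was lower in CLP than in preGM (-2.39 ± 0.37, adjusted p = 0.000732), and at -2.97 (adjusted p = 2.43e-06) without CLP replicate 2. The 2 other Ptpn12 probe sets that passed in this comparison were also lower in CLP, at -1.96 ± 0.40 (adjusted p = 0.00712) and -1.33 ± 0.21 (adjusted p = 0.00147). The mean over its probe sets gave -1.48 (adjusted p = 0.00130). Its call held under every alternative except the fit on the CLP and preGM arrays alone (adjusted p = 0.0805). In the other 4 comparisons Ptpn12 gave no call, and its difference in preMegE against preGM was 0.86 ± 0.33 (adjusted p = 0.170), with no overlap between the arrays.

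Ptpn22, known as PEP in mice, restrains antigen receptor signals in lymphocytes together with Csk. Ptpn22 intensities were 93.7, 118 and 99.1 in CLP, 88.8, 110.1 and 90.2 in MkP, 26.2, 16.7 and 22.0 in preCFUE, 58.0, 63.5, 49.0, 45.1 and 37.6 in preMegE and 104, 93.6 and 63.4 in preGM. The preCFUE arrays were the lowest and the MkP arrays overlapped those of CLP, with preMegE between them. Ptpn22 was higher in MkP than in preMegE (0.76 ± 0.15, adjusted p = 0.00452) and than in preCFUE (1.58 ± 0.17, adjusted p = 1.54e-05), and lower in preCFUE than in preMegE (-0.82 ± 0.15, adjusted p = 0.00289). These 3 calls held under every alternative tried. Relative to preMegE, the branches lay on opposite sides, and MkP against preCFUE is the test of that difference. Ptpn22 was also lower in preMegE than in preGM (-0.62 ± 0.15, adjusted p = 0.0161), with 1 preMegE array above the lowest preGM array, and that call ended without preGM replicate 1 or 2 (adjusted p 0.0869 to 0.113). CLP did not differ from preGM past the threshold (0.23 ± 0.17, adjusted p = 0.337). Ptpn18, a phosphatase first cloned from blood progenitors, gave 116, 211 and 189 in CLP, 159, 197 and 129 in MkP, 102, 73.4 and 136 in preCFUE, 174, 191, 165, 230.4 and 248 in preMegE and 311, 328 and 187 in preGM. Every preCFUE array of Ptpn18 was below every preMegE array. Ptpn18 was lower in preCFUE than in preMegE (-0.88 ± 0.23, adjusted p = 0.0287), a call that ended without any 1 of 4 arrays (preCFUE replicates 1 and 2, preMegE replicates 4 and 5, adjusted p 0.0654 to 0.160).

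Of the 5 FERM phosphatases, whose FERM part binds membrane proteins, Ptpn14 and Ptpn3 differed among the fractions. In preMegE against preGM, MkP against preMegE and MkP against preCFUE, Ptpn14 had the largest fold change of the 32 genes. Ptpn14, which also binds the growth regulator YAP, gave 29.4, 12.2 and 18.6 in CLP, 24.0, 20.3 and 26.4 in MkP, 139, 155 and 114 in preCFUE, 196, 171, 324, 179.8 and 216 in preMegE and 22.7, 30.1 and 19.6 in preGM. The 5 preMegE arrays were all above the preCFUE arrays, and both fractions were far above the 9 arrays of CLP, MkP and preGM. Ptpn14 was higher in preMegE than in preGM (2.51 ± 0.19, adjusted p = 3.29e-07), and lower in MkP than in preMegE (-2.53 ± 0.19, adjusted p = 6.26e-07) and than in preCFUE (-1.94 ± 0.21, adjusted p = 1.74e-05). All 3 calls held under every alternative tried, and in each a second Ptpn14 probe set, with a mean of 37.9, passed in the same direction (1.40 ± 0.15, -1.54 ± 0.15 and -1.11 ± 0.17). With the mean over Ptpn14 probe sets the 3 values were 1.37, -1.40 and -1.13. In preCFUE against preMegE, the difference was -0.59 ± 0.19 (adjusted p = 0.0729) and did not pass although the arrays did not overlap.

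Ptpn3, known as PTPH1, gave 32.3, 42.3 and 58.0 in CLP, 53.5, 31.6 and 47.3 in MkP, 156, 251 and 193 in preCFUE, 122, 83.4, 168, 89.4 and 57.2 in preMegE and 60.5, 82.8 and 60.3 in preGM. The preCFUE arrays were the highest, with 1 preMegE array above the lowest of them, and MkP was below both. Ptpn3 was lower in MkP than in preCFUE (-1.84 ± 0.28, adjusted p = 0.000494), under every alternative tried. It was also lower in MkP than in preMegE (-0.94 ± 0.25, adjusted p = 0.0287) and higher in preCFUE than in preMegE (0.90 ± 0.25, adjusted p = 0.0416). The MkP to preMegE call ended without MkP replicate 2 or 3 or preMegE replicate 1 (adjusted p 0.0679 to 0.111). The preCFUE to preMegE call ended without any 1 of 9 arrays (all 3 preCFUE arrays, preMegE replicates 2, 4 and 5, MkP replicates 1 and 3, preGM replicate 1, adjusted p 0.0511 to 0.192). Ptpn4, the closest relative of Ptpn3, averaged 118 ± 44.9 in CLP and 208 ± 6.04 in preGM (SD, n = 3 each). Their arrays did not overlap, but with all arrays the difference of -0.79 ± 0.28 did not pass (adjusted p = 0.0647). Without CLP replicate 2 it passed, at -1.05 (adjusted p = 0.0132). Ptpn21 had fraction means between 26.2 in CLP and 50.7 in preGM, and Ptpn13 stayed under 16 in every fraction mean. A second Ptpn13 probe set, with a mean of 8.91, was higher in preCFUE than in preMegE (0.41 ± 0.056, adjusted p = 0.000427) and lower in MkP than in preCFUE (-0.34 ± 0.063, adjusted p = 0.00278), where the probe set used did not pass.

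The TCPTP and PTP1B pair acts on JAK kinases and on receptors. Ptpn2, TCPTP, passed the F test (adjusted p = 0.0345) and no comparison, with 709.8, 1151 and 661 in CLP, 1158, 1163 and 1168 in MkP, 1409.7, 1123 and 1238 in preCFUE, 1409, 1114, 1311, 1442 and 1408 in preMegE and 1300.1, 1303 and 936 in preGM. CLP replicates 1 and 3 were the lowest of all 17 arrays, and CLP replicate 2 lay inside the range of the other fractions. In CLP against preGM the difference was -0.51 ± 0.18 (adjusted p = 0.0652), and -0.75 (adjusted p = 0.00219) without CLP replicate 2. Ptpn1, PTP1B, a regulator of insulin and JAK signals, averaged 312 ± 77.6 in MkP and 361 ± 49.7 in preMegE (SD, n = 3 and 5), and did not pass (-0.22 ± 0.18, adjusted p = 0.481). A dimmer Ptpn1 probe set, with a mean of 113, disagreed: it was higher in MkP than in preMegE (0.40 ± 0.080, adjusted p = 0.00697) and than in preCFUE (0.60 ± 0.089, adjusted p = 0.000484). Ptpn9, the phosphatase MEG2, first cloned from a megakaryocyte line and tied to secretory vesicles, averaged 50.4 ± 12.4 in MkP and 85.1 ± 31.4 in preMegE (F test adjusted p = 0.160). Ptpn23, an endosome protein, and Ptpn5, a neuronal phosphatase, had fraction means between 52.7 and 63.1 and between 12.4 and 17.7. The 7 members with a mean under 16 in every fraction were Ptpn13, Ptpn20, Ptprd, Ptprg, Ptprm, Ptpro and Ptprr, with single arrays between 5.68 and 19.5.

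The comparison of preMegE with preGM asks what sets megakaryocyte and erythroid precursors apart from granulocyte and macrophage ones. Here 1 member was higher (Ptpn14) and 4 were lower (Ptpn22, Ptpn6, Ptprf and Ptpro), and 27 did not pass. The 5 called are 15.6% of the members, and over all genes 8.69% passed, 2.81% higher and 5.88% lower. The median log2 fold change of the members was -0.019, against 0.013 over all genes. The brightest members that did not pass were Ptprc, Ptpn11 (-0.15 ± 0.20, adjusted p = 0.868) and Ptpn2 (0.19 ± 0.16, adjusted p = 0.746). The count of 5 became 1 without preGM replicate 2, 2 without preGM replicate 1 or 3, and 3 without preMegE replicate 1 or 2, where 6.69% to 7.95% of all genes passed.

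MkP against preMegE follows the megakaryocyte branch from its shared precursor. Higher were 3 members (Ptpn22, Ptpn11 and Ptprf) and lower were 4 (Ptpn14, Ptpre, Ptpn3 and Ptprc), with 25 not past the test. The 7 called are 21.9% of the members, and over all genes 10.3% passed, 3.98% higher and 6.37% lower. The member median was 0.013, against 0.0096 over all genes. Ptpn2 (-0.19 ± 0.16, adjusted p = 0.512), Ptpn12 (-0.23 ± 0.33, adjusted p = 0.727) and Ptpn6 were the brightest that did not pass. Without MkP replicate 2 the count of 7 became 4, where 9.40% of all genes passed.

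preCFUE against preMegE follows the erythroid branch. Ptpn3 was higher and 4 members were lower (Ptprc, Ptpre, Ptpn18 and Ptpn22), with 27 not past the test. The 5 called are 15.6% of the members, and over all genes 8.69% passed, 4.75% higher and 3.94% lower. The member median was -0.030, against 0.0062 over all genes, and the brightest without a call were Ptpn11 (0.019 ± 0.20, adjusted p = 0.993), Ptpn2 (-0.088 ± 0.16, adjusted p = 0.940) and Ptpn12 (-0.46 ± 0.33, adjusted p = 0.599). The sign of Ptpn11 turned under several alternatives. The count of 5 became 3 without preCFUE replicate 1 or 2 or preMegE replicate 4 or 5, where 5.83% to 7.40% of all genes passed. Both branch comparisons use the same preMegE arrays, so their values are not independent of each other.

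MkP against preCFUE sets the branches against each other directly. Higher in MkP were 4 members (Ptpn22, Ptprf, Ptprc and Ptpn11) and lower were 2 (Ptpn14 and Ptpn3). The other 26 did not pass. The 6 called are 18.8% of the members, and over all genes 16.2% passed, 5.51% higher and 10.7% lower. The member median was 0.042, against 0.0052 over all genes. The brightest without a call were Ptpn2 (-0.10 ± 0.18, adjusted p = 0.771), Ptpn12 (0.23 ± 0.37, adjusted p = 0.746) and Ptpre.

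**Figure D3:**
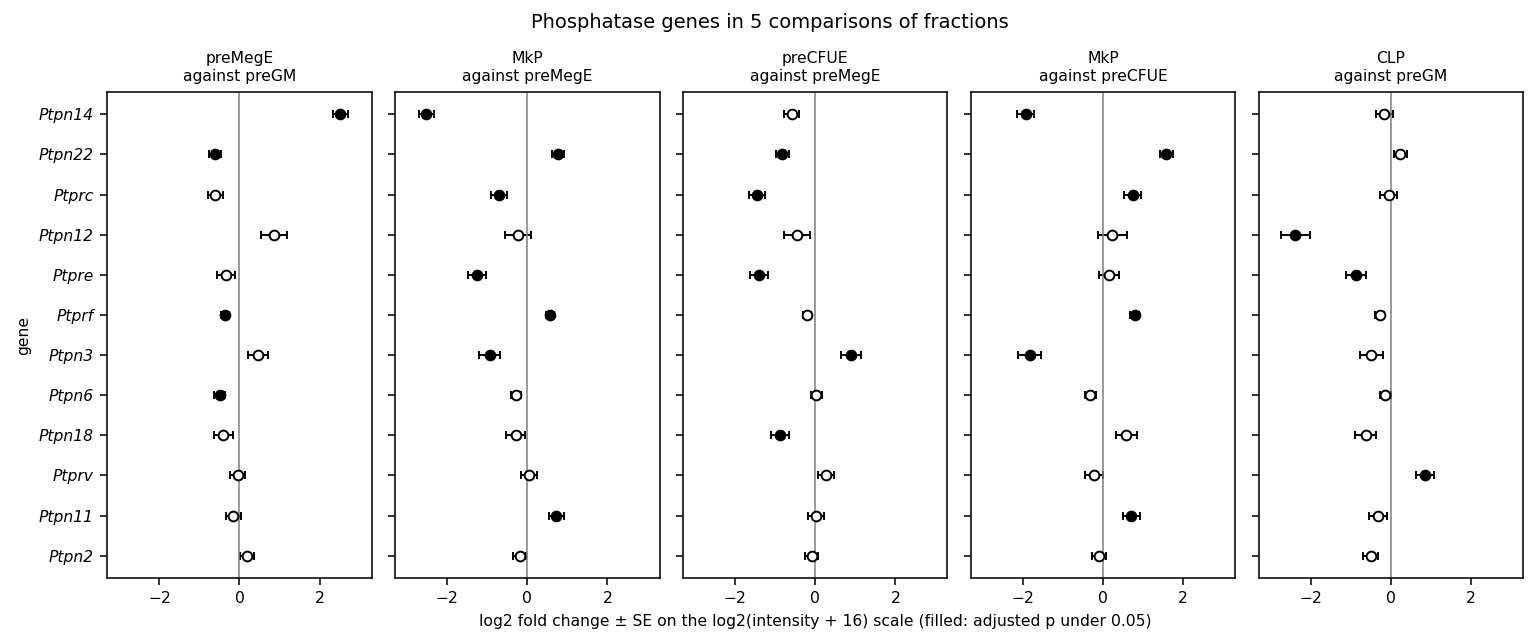
Log2 fold change with its standard error (horizontal, on the log2(intensity + 16) scale) of 12 phosphatase genes (vertical) in each of 5 comparisons, with filled points for an adjusted p under 0.05. Ptpn22 lies right of 0 in MkP against preMegE (0.76) and left of 0 in preCFUE against preMegE (-0.82), and the point farthest from 0 is Ptpn14 in MkP against preMegE (-2.53).

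CLP against preGM sets lymphoid against granulocyte and macrophage progenitors. Ptprv was higher, Ptpn12 and Ptpre were lower, and 29 members did not pass. The 3 called are 9.38% of the members, and over all genes 18.3% passed, 5.07% higher and 13.3% lower. The member median was -0.091, against 0.0053 over all genes. The brightest without a call were Ptprc, Ptpn11 (-0.33 ± 0.22, adjusted p = 0.294) and Ptpn2. Without CLP replicate 2 the count became 9, where 33.2% of all genes passed. The members added were Ptpn2, Ptpn4, Ptpn18 (-0.79, adjusted p = 0.0477), Ptprn (0.49, adjusted p = 0.0415), Ptprd (0.30, adjusted p = 0.0382) and Ptprb (0.27, adjusted p = 0.0377). The count was 1 without CLP replicate 3 or preGM replicate 1 or 2, where 7.84% to 7.97% of all genes passed, and 5 without preGM replicate 3 (22.5% of all genes) or preMegE replicate 2 (18.6%). The CLP fraction also had the highest mean Gapdh 3-prime to 5-prime ratio, 4.07 against 3.27 in preGM, and with that ratio as a covariate Ptpre (adjusted p = 0.0738) and Ptprv (adjusted p = 0.0619) no longer passed.

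**Figure D4:**
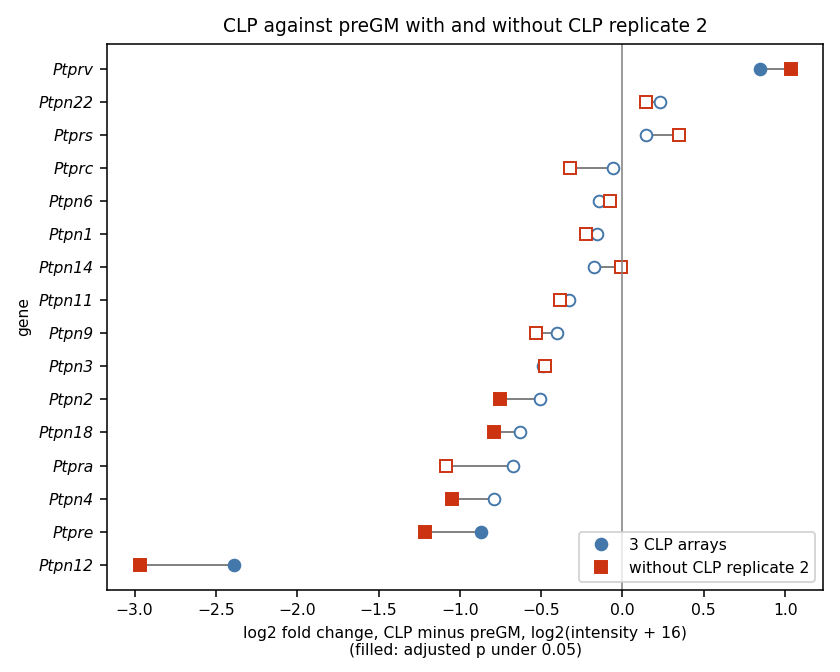
Log2 fold change of CLP against preGM (horizontal, log2(intensity + 16) scale) for the 16 phosphatase genes with a mean of at least 64 in a fraction (vertical), from all 3 CLP arrays (blue circles) and without CLP replicate 2 (red squares), filled for an adjusted p under 0.05. Ptpn12 moves to -2.97 and Ptpra to -1.08 when that array is left out.

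Genes that work with the phosphatases were followed in 5 lists, and their counts stand beside the share of all genes past the test, 8.69% in preMegE against preGM, 10.3% in MkP against preMegE, 8.69% in preCFUE against preMegE, 16.2% in MkP against preCFUE, 18.3% in CLP against preGM and 34.9% by the F test. Of 15 measured Src family kinases and regulators, which CD45, PTP alpha and the PEST phosphatases act on or with, the 4 that passed in preCFUE against preMegE (8.69% of all genes passed there) were all lower. The T and NK marker sum was also lower there, at 91.3 to 110.4 in preCFUE, against 451 to 606 in preMegE and 371 to 517 in MkP, and its part in these differences was not tested. Of the 4 markers in that sum, 1 had a mean of at least 64 in preMegE, 1 in MkP and 0 in preCFUE. The Src list's median log2 fold change in preCFUE against preMegE was -0.29, against 0.0062 over all genes. The 4 lower genes of the list were Syk at -1.54 ± 0.14 (adjusted p = 7.49e-06), Fyn at -1.24 ± 0.16 (adjusted p = 0.000135), Tec at -0.85 ± 0.20 (adjusted p = 0.0155) and Lat at -0.53 ± 0.11 (adjusted p = 0.00785). Syk, a kinase of immune and platelet receptors, averaged 209.6 ± 15.4 in preCFUE and 641 ± 58.7 in preMegE. In MkP against preCFUE all 5 that passed were higher, led by Syk at 2.17 ± 0.16 (adjusted p = 2.85e-07) and Fyn at 1.64 ± 0.17 (adjusted p = 1.36e-05), and the list's median was 0.40, against 0.0052 over all genes. In MkP against preMegE Src and Syk were higher and 13 did not pass. In preMegE against preGM Lat was higher and Pag1, which recruits Csk, and Cbl were lower. In CLP against preGM 5 were higher and 1, Matk, was lower.

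Of 19 measured receptors and adaptors that dock SHP1 or SHP2, the 4 that passed in preMegE against preGM were all lower, as was Ptpn6. The list's median log2 fold change was -0.080, against 0.013 over all genes. Cd72, an inhibitory receptor, averaged 22.7 ± 4.79 in preMegE and 129 ± 24.3 in preGM, a log2 fold change of -1.90 ± 0.22 (adjusted p = 2.76e-05). The others were Btla, Sirpa and the adaptor Gab2, at -1.10 ± 0.20 (adjusted p = 0.00196). In MkP against preMegE, where Ptpn11 was higher, the 3 that passed, Grb2, Cd300a and Lair1, were lower, while the list's median was 0.074, against 0.0096 over all genes. Grb2, the adaptor that links receptors to Ras, had a log2 fold change of -1.26 ± 0.26 (adjusted p = 0.00610). Cd300a was the only 1 of the 19 past the test in preCFUE against preMegE, at -1.67 ± 0.20 (adjusted p = 7.67e-05). In MkP against preCFUE, Cd300a was higher and Lair1 lower. In CLP against preGM, Btla was higher and 4 were lower, Cd300a, Gab2 and Sirpa among them.

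Of 11 genes for binding partners of these phosphatases, Pstpip1, a cytoskeletal partner of PTP-PEST, was lower in preMegE than in preGM at -2.01 ± 0.31 (adjusted p = 0.000534), and the other 10 did not pass. In MkP against preMegE 4 were higher (Ppfibp1, Pstpip2 and Ppfia4 among them) and 1 lower, with a list median of 0.14, against 0.0096 over all genes. That 1 was Ptprcap, the CD45 associated protein, at -1.17 ± 0.31 (adjusted p = 0.0274). In MkP against preCFUE 3 were higher. By limma 0 passed in preCFUE against preMegE and 0 in CLP against preGM, where 1 and 2 had an unadjusted p under 0.05. Of 37 other tyrosine and dual specificity phosphatases, 20 (54.1%) passed the F test, where 34.9% of all genes did. Dusp3 averaged 293 ± 37.2 in MkP and 52.5 ± 8.02 in preMegE, with a log2 fold change of 2.18 ± 0.16 (adjusted p = 5.36e-07). Counts of higher and lower in that list were 2 and 5 in preMegE against preGM, 4 and 4 in MkP against preMegE, 0 and 6 in preCFUE against preMegE, 5 and 3 in MkP against preCFUE, and 3 and 6 in CLP against preGM. That list's medians lay between -0.067 and 0.029. Cdc14a led the 6 in preCFUE at -1.68 ± 0.24 (adjusted p = 0.000361).

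Cytokine receptors, JAK kinases and STAT factors, whose signals SHP1, PTP1B and TCPTP oppose, passed the F test in 16 of 18 cases (88.9%, against 34.9% of all genes). Higher and lower numbered 5 and 6 in preMegE against preGM, 1 and 8 in MkP against preMegE, 0 and 4 in preCFUE against preMegE, 3 and 3 in MkP against preCFUE, and 2 and 8 in CLP against preGM. The list's median log2 fold changes in these comparisons were -0.14, -0.26, -0.29, 0.19 and -0.58, in the same order, against 0.013, 0.0096, 0.0062, 0.0052 and 0.0053 over all genes. Jak2, a kinase of the erythropoietin receptor, averaged 518 ± 18.9 in preCFUE and 820.2 ± 121 in preMegE, a log2 fold change of -0.63 ± 0.10 (adjusted p = 0.00109). Kit, which the gates select on and which SHP1 restrains, had a log2 fold change of -1.79 ± 0.25 (adjusted p = 0.000299) in MkP against preMegE. The CLP gate selects on Il7r, on Flt3 (Flk2) and on low Kit, so the differences of these genes in CLP against preGM are no finding. The MkP and preMegE gates are both Kit+, so the gates as written do not set the Kit difference between them. The counts and medians of this list include these gate genes.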

How the data were processed

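The 17 titles state a sorting gate, from which the fraction of each array was taken. The free-text description names another gate on all 17 and was not used. The names CLP, MkP, preCFUE and preGM are from general knowledge of this sorting scheme, and preMegE is in the design text. The authors deposited 1 intensity per probe set and array, made with RMA, per the submitters' processing notes and the design text, and the values lie on a linear scale. RNA was amplified in more than 1 round, which favours 3-prime ends, per the labels and design text. The version of RMA is not given in the sources read.

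A single symbol was annotated to 34958 of 45101 probe sets, while 932 carried more than 1 and 64 served as controls. RefSeq (GRCm38.p6) matched 34754 of the 34958, and 0 symbols changed. The probe set with the highest mean of log2(intensity + 16) stood for each gene, which mattered for 23 of 32 members (81 probe sets). Ptprcap, Ptprn2 and Ptprz1 fell outside the rule, and Ptprt, Ptprh, Ptprq and Ptpn7 were not analysed here. Of all values, 47.3% were under 16, so fold changes on this scale understate those of dim genes. The number of arrays limits the precision. 0 pairs of arrays were identical.

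All arrays entered 1 limma 3.58.1 fit (R 4.3.3, 12 residual and 2.01 prior degrees of freedom) with a moderated F test and 5 contrasts, adjusted by Benjamini-Hochberg over 18193 genes at 0.05. Other probe sets were tested in a fit over all 34945 of them. Where the probe set used passed in that fit, another probe set of the same member was available in 28 cases. It passed in the same direction in 7, in the opposite direction in 0, and did not pass in 21. The fit was tested on simulated data. Alternatives were pseudocounts of 1 and 64, a mean of at least 16, quantile normalization, median centring, the mean over probe sets, the Gapdh ratio as covariate, array weights, replicate blocks, only the arrays compared, and leaving out each array. Described in full were members past the F test with a mean of 64 in a fraction. Named per comparison were up to 8 past the test in each direction and the 3 brightest that were not, and from other lists up to 4. Ptprf and Ptpra are also given in detail, chosen after their values were seen. Members and lists were chosen with earlier results of these data known. Motifs were searched as exact letters on both strands, and 0 overlapped.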

Additional observations from a re-analysis of the deposited data

How the results depend on the processing

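Carried through the alternatives were 41 differences of single genes. They were all 26 that passed the test and, in each of the 5 comparisons, the 3 brightest members that did not. Of these 26, 12 passed with the same sign under every alternative and 14 lost the call under at least 1. The 12 were those of Ptpn14 (3), Ptpn22 in MkP or preCFUE (3), Ptpre against preMegE (2), Ptprf in MkP (2), Ptprc in preCFUE against preMegE and Ptpn3 in MkP against preCFUE. Of the 15 without a call, 5 passed under at least 1 alternative: Ptprc in preMegE and in CLP against preGM, Ptpn6 in MkP against preMegE, Ptpre in MkP against preCFUE and Ptpn2 in CLP against preGM. Members outside these 15 also gained calls, as given above for CLP against preGM without CLP replicate 2. The number of members past the F test, 13, ran from 11 to 16 when 1 array was left out, where 29.7% to 42.9% of all genes passed. In preMegE against preGM the count of 5 became 3 with genes of mean at least 16 (13.1% of all genes passed), 3 with the mean over probe sets (9.03%) and 11 with array weights (20.6%), and 1 to 7 (6.69% to 9.64%) with 1 array left out. With 1 array left out, the count of 7 in MkP against preMegE ran from 4 to 9 (6.51% to 13.2% of all genes passed). The count of 5 in preCFUE against preMegE ran from 3 to 5 (5.80% to 10.3%), and the count of 6 in MkP against preCFUE from 4 to 6 (9.79% to 19.2%). In CLP against preGM the count of 3 became 5 with a pseudocount of 1 (20.6% of all genes passed), 5 with genes of mean at least 16 (28.7%), 5 after quantile normalization (12.6%), 7 with array weights (35.3%) and 0 with only the arrays of those fractions, where limma gave 9 at an unadjusted p under 0.05 and 3.06% of all genes past the test. That count ran from 1 to 9 with 1 array left out, where 7.84% to 33.2% of all genes passed. The cause was not tested.

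The deviations of 30 same-numbered pairs from different fractions correlated from -0.54 to 0.51 (median -0.046), with 11 over 0.1. For 84 differently numbered pairs the range was -0.60 to 0.59 (median 0.030), with 32 over 0.1. These values cannot show whether some of the arrays were paired. With the replicate number as a block, 9 members (and 24.96% of all genes) passed the F test, 4 (5.86%) passed in preMegE against preGM, 6 (5.32%) in MkP against preMegE, 3 (4.98%) in preCFUE against preMegE, 4 (11.7%) in MkP against preCFUE and 2 (9.77%) in CLP against preGM.

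Other settings also ended calls. The replicate block ended 8, the arrays of the compared fractions alone 8, the mean over probe sets 7, quantile normalization 4 (Ptpn6 and Ptprf in preMegE against preGM, Ptpn3 in MkP and in preCFUE against preMegE), median centring 4, the Gapdh covariate 2 (Ptpre and Ptprv in CLP) and the mean of at least 16 ended 1 (Ptprf in preMegE).

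Of the called values, a pseudocount of 64 moved 13 by over 1.5 times, the mean over probe sets 10 and a pseudocount of 1 moved 3, all with their sign kept.

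Of the 41 differences carried through the alternatives, signs turned only among those that had no call. After quantile normalization MkP against preMegE became 0.030 for Ptpn2, 0.0055 for Ptpn12 and 0.023 for Ptpn6, Ptpn2 in MkP against preCFUE 0.25, Ptpn11 in preCFUE against preMegE -0.12, and CLP against preGM 0.33 for Ptprc and 0.056 for Ptpn11. With the mean over probe sets Ptpn11 became 0.070 in preMegE against preGM and -0.038 in preCFUE against preMegE, and Ptprc in CLP against preGM 0.49, past the threshold (adjusted p = 0.0489). Ptpn11 in preCFUE against preMegE was -0.0024 with array weights, -0.091 with the replicate block, and -0.091 to 0.15 with 1 array left out. Ptprc in CLP against preGM was 0.20 with the Gapdh covariate and -0.32 to 0.070 with 1 array left out. Ptpre in MkP against preCFUE ran from -0.016 to 0.23 with 1 array left out. Another scaling moved the median of all genes by -0.081 to 0.039. The cause was not tested. With 47.3% of values under 16 and no background level per probe set, the values of the dim members are the least certain.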
